A study of Mus musculus with 9 samples.

Results

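The choice between monocytes and neutrophils was followed through 9 of the genes known to act on it, in 3 mouse myeloid cell lines. They were taken by symbol, without use of their values, from a deposited table of 54347 genes. They are *Gfi1*, *Egr1*, *Egr2*, *Nab1*, *Nab2*, *Klf2*, *Klf4*, *Klf6* and *Nr4a1*. Against Hox-WT, Hox-URE had less *Gfi1* and more *Egr1*, *Nab2* and *Klf6*. In URE-AML *Gfi1* overlapped its levels in Hox-WT, *Egr1* was lower than in Hox-URE, and *Nab1* and *Klf6* were highest of the 3 lines. *Klf2* was low everywhere, with most of its counts in Hox-URE and URE-AML, *Nr4a1* had most of its counts in Hox-WT and the fewest in URE-AML, and *Klf4* was near or at 0 in all libraries.

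Gfi1 is a zinc finger repressor that favors neutrophils, and Egr1 and Egr2 are zinc finger activators that favor monocytes and macrophages. Each side is known to repress genes of the other, with Egr proteins acting together with their cofactors Nab1 and Nab2, which can also dampen Egr activity and are themselves induced by it. Klf4 promotes monocytes downstream of PU.1, Klf2 and Klf6 are related zinc finger factors of myeloid cells, and Nr4a1 is an orphan nuclear receptor needed for patrolling monocytes. *Egr1*, *Egr2*, *Klf2*, *Klf6* and *Nr4a1* are also early response genes, whose RNA rises within a short time of a stimulus and is short-lived.

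Hox-WT and Hox-URE were made from lineage-negative, c-Kit+ bone marrow cells immortalized with a Hoxb8 fusion that estradiol keeps active, and are labelled hematopoietic progenitors. Hox-WT is wild type, and Hox-URE is UREd/d, lacking on both alleles the upstream regulatory element (URE), which enhances transcription of *Spi1*, the PU.1 gene. URE-AML, labelled B22 and AML blast-like, is a line of leukemic blasts of a UREd/d mouse. All 3 lines grew in the same medium with IL-3, IL-6, SCF and estradiol, and each had 3 RNA libraries, numbered here as in the labels. Each genotype and stage is 1 line, so a difference between genotypes and a difference between lines cannot be told apart. Nothing in the labels says that the libraries of a line were separate cultures, so p measures the spread between these libraries, which may be technical.

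Libraries held 20331064 to 28588718 counts, and expression is given in CPM (counts per 1e+06 counts of the library, after TMM scaling). A floor of 3 counts stood at 0.104 to 0.153 CPM and covers counting error only. *Spi1* was at 96.5 to 110 CPM in Hox-WT, 0 to 0.0414 CPM in Hox-URE and 2.503 to 6.35 CPM in URE-AML. As for the labelled cell types, *Kit* was at 162 to 192 CPM in Hox-WT. It was at 35.4 to 50.7 CPM in Hox-URE and at 92.7 to 99.6 CPM in URE-AML. *Cd34* and *Flt3* were at or near 0 in URE-AML (up to 0.0404 CPM and 0 CPM). *Ptprc*, the gene of the leukocyte marker CD45, was at 152 to 170 CPM in Hox-WT against 0 to 0.0429 CPM in both UREd/d lines. These genes belong to a list of 7 progenitor markers counted below. A gene was called when the edgeR quasi-likelihood F test gave an adjusted p under 0.05 and the fold change was over 1.5. Of the 9 genes 8 were tested. *Klf4* had too few counts, and *Egr2* passed the filter on low counts only through the Hox-URE libraries and library 2 of Hox-WT. In bulk RNA, fewer cells that express a gene and less RNA per cell cannot be told apart.

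The promoters of 4 of the genes are shown because they hold motifs of stimulus-responsive factors or of the Egr proteins themselves. They come from the RefSeq table of windows from 250 bases before to 50 after a start site, on GRCm38.p6, where 8 of the 9 genes had 13 windows. *Egr2* is shown by the window at chr10:67537680-67537979 on the plus strand, 1 of its 5. The *Nr4a1* window is chr15:101266596-101266895 on the plus strand, that of *Klf2* chr8:72318812-72319111 on the plus strand and that of *Nab1* chr1:52500399-52500698 on the minus strand. Capitals mark the CRE half-site TGACG on either strand in *Egr2* and *Nr4a1*, the SRF CArG box in *Egr2*, the MEF2 motif in *Klf2* and the EGR motif GCGTGGGCG on either strand in *Nab1*.
Egr2: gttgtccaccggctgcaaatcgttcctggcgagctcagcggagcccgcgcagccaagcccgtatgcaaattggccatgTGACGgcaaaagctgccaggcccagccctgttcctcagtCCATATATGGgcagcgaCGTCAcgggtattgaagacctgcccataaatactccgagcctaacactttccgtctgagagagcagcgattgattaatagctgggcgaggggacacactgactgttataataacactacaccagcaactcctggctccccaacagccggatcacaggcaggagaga
Nr4a1: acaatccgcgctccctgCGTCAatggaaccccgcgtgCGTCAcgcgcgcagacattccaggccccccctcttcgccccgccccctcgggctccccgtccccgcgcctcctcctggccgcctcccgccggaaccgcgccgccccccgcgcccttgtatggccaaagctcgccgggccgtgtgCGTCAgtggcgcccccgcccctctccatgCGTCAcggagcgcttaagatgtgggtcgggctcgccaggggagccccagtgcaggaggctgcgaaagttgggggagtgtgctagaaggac
Klf2: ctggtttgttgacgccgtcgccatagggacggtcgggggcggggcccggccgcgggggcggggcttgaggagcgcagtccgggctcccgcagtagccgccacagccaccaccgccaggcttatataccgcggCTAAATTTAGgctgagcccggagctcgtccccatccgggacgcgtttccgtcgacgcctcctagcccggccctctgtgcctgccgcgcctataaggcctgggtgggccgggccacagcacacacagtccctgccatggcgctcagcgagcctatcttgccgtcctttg
Nab1: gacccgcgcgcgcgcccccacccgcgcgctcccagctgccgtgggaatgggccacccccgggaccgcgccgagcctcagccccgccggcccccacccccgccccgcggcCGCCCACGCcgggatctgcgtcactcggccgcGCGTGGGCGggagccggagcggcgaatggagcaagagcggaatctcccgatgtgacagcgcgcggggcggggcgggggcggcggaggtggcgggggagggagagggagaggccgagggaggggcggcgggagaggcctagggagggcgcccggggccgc
The *Nab1* window held 2 EGR motifs, from -141 to -133 and from -109 to -101 relative to the start site. Of the 32851 windows kept, 0.612% held at least 1. The CArG box of *Egr2*, to which the serum response factor binds, lay from -133 to -124, and 1.63% of windows held one. The *Nr4a1* window held 4 CRE half-sites and the *Egr2* window 2, where 20.8% of windows held at least 1. The *Klf2* and *Nab1* windows held 1 each, not in capitals above, and so did the *Klf4* window. The MEF2 motif of *Klf2* lay from -118 to -109, and 0.557% of windows held one. The PU.1 motif AGGAAGT and the GFI1 motif AAATCAC were in none of the 13 windows, against 9.35% and 3.2% of all windows. These are matches of letters on both strands and say nothing about binding in these cells.

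The repressor *Gfi1* (ENSMUSG00000029275, chr5:107716657-107726036, minus strand, GRCm38) was at 151, 135 and 147 CPM in libraries 1, 2 and 3 of Hox-WT. It was at 102, 82.6 and 95.1 CPM in Hox-URE and at 146, 178 and 201 CPM in URE-AML. The 3 Hox-URE libraries lay below all others, and library 1 of URE-AML lay within the range of Hox-WT. *Gfi1* fell in Hox-URE against Hox-WT, with a log2 fold change of -0.63 ± 0.13 (SE, n = 3 against 3) and an edgeR adjusted p of 0.00199. URE-AML exceeded Hox-URE by 0.91 ± 0.13 on the log2 scale (edgeR adjusted p = 0.000155). The difference of URE-AML from Hox-WT was 0.28 ± 0.13 (edgeR adjusted p = 0.0805) and was not called. The fall in Hox-URE was close to the 1.5-fold limit: without library 2 of Hox-URE it was -0.56 (edgeR adjusted p = 0.0103), under that limit. The 828 tested genes of chromosome 5, which carries *Gfi1*, had a median log2 fold change of -0.06 in Hox-URE against Hox-WT, 0.18 for URE-AML against Hox-WT and 0.23 for URE-AML against Hox-URE, each of the same sign as *Gfi1*, and whether copy number had a part was not tested. A processed transcript on the opposite strand, *A430072P03Rik*, overlaps *Gfi1*.

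*Gfi1* was also the most abundant of the 9 genes per length in every line. On a scale of TPM (counts per exon length, scaled to the same sum in each library), its mean was 120 for Hox-WT, 68.3 for Hox-URE and 140 for URE-AML, which put it above 90.8%, 85.4% and 91.9% of tested genes. The next most abundant were *Nab1* in Hox-WT (24.1) and URE-AML (78.9) and *Egr1* in Hox-URE (47.8). The 3 tested genes whose pattern over the 9 libraries was closest to that of *Gfi1*, by the root mean square difference of centered log2 CPM, were *Htra2* (0.0965), *Wdhd1* (0.119) and *Trim27* (0.121). Judged over the 3 line means instead, 0 of these 3 were among the closest 3.

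*Egr1* (ENSMUSG00000038418, chr18:34859823-34864984, plus strand) was at 4.57, 28.4 and 5.43 CPM in libraries 1 to 3 of Hox-WT. It was at 110, 99.0 and 66.5 CPM in Hox-URE and at 20.4, 38.1 and 15.1 CPM in URE-AML. All Hox-URE libraries lay above all others, while library 2 of Hox-WT stood well above its line's other libraries and inside the range of URE-AML. Against Hox-WT, *Egr1* rose in Hox-URE by 2.84 ± 0.64 on the log2 scale, which is 7.18-fold (edgeR adjusted p = 0.00403). Without library 2 of Hox-WT the rise was 4.196 (adjusted p = 9.05e-05). URE-AML was lower than Hox-URE by a log2 fold change of -1.91 ± 0.62 (edgeR adjusted p = 0.0225).

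The second of these calls rested on single libraries. It was lost without library 1 of URE-AML (-1.79, edgeR adjusted p = 0.0740), without library 3 of URE-AML (-1.65, adjusted p = 0.0815) and without library 2 of Hox-URE (-1.85, adjusted p = 0.0534). URE-AML and Hox-WT differed in *Egr1* by 0.94 ± 0.62 (edgeR adjusted p = 0.223), which was not called. Without library 2 of Hox-WT that difference was 2.29 (edgeR adjusted p = 0.00137). Hox-URE was thus highest, and whether URE-AML lay above Hox-WT depended on the libraries and the fit used. The genes closest to *Egr1* in pattern over 9 libraries were *Zfp174* (0.646), *Ptpn5* (0.696) and *Sphk1* (0.710), much farther away than those of *Gfi1*, and 0 of them were among the closest 3 over line means.

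*Egr2* (ENSMUSG00000037868, chr10:67535475-67542188, plus strand) was scarce. Hox-WT had 3, 26 and 4 counts, Hox-URE 14, 15 and 10, and URE-AML 2, 4 and 0. Hox-URE lay inside the range of Hox-WT, because library 2 of Hox-WT was again the high one, and all of URE-AML lay below Hox-URE. The log2 fold change of Hox-URE against Hox-WT was 0.47 ± 0.79 (edgeR adjusted p = 0.644), or 2.08 (adjusted p = 0.051) without library 2 of Hox-WT, and was not called in either. URE-AML was lower than Hox-URE by a log2 fold change of -2.58 ± 0.98 (edgeR adjusted p = 0.045), and summed counts gave a ratio of Hox-URE to URE-AML of 6.31 (exact 95% interval 2.65 to 18.2, counting error only). That call ended, at adjusted p of 0.0645 to 0.123, without any 1 library of the 2 lines other than library 2 of URE-AML, without which the value was -3.57. Since 0 of the URE-AML libraries passed the filter on low counts for *Egr2*, the gene entered the test through libraries of the other lines, where it was higher, and this call is no support for a difference. Against Hox-WT the difference was -2.11 ± 1.00 (edgeR adjusted p = 0.0965), or -0.50 (adjusted p = 0.678) without library 2 of Hox-WT.

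Set against each other within a library, *Gfi1* had 32.3, 4.59 and 26.3 counts for each count of *Egr1* and *Egr2* together in Hox-WT. The ratio was 0.925, 0.830 and 1.42 in Hox-URE and 7.13, 4.65 and 13.3 in URE-AML. Hox-URE stood apart from both other lines, which overlapped each other through library 2 of Hox-WT. On the log2 scale, with 0.5 added to both counts, the ratio was 3.97 ± 1.54 (SD, n = 3) for Hox-WT, 0.04 ± 0.41 for Hox-URE and 2.93 ± 0.76 for URE-AML. These are ratios of counts, not of molecules, since the genes differ in length, and they were compared only between lines. Nearly all of the *Egr* counts were those of *Egr1*.

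**Figure D1:**
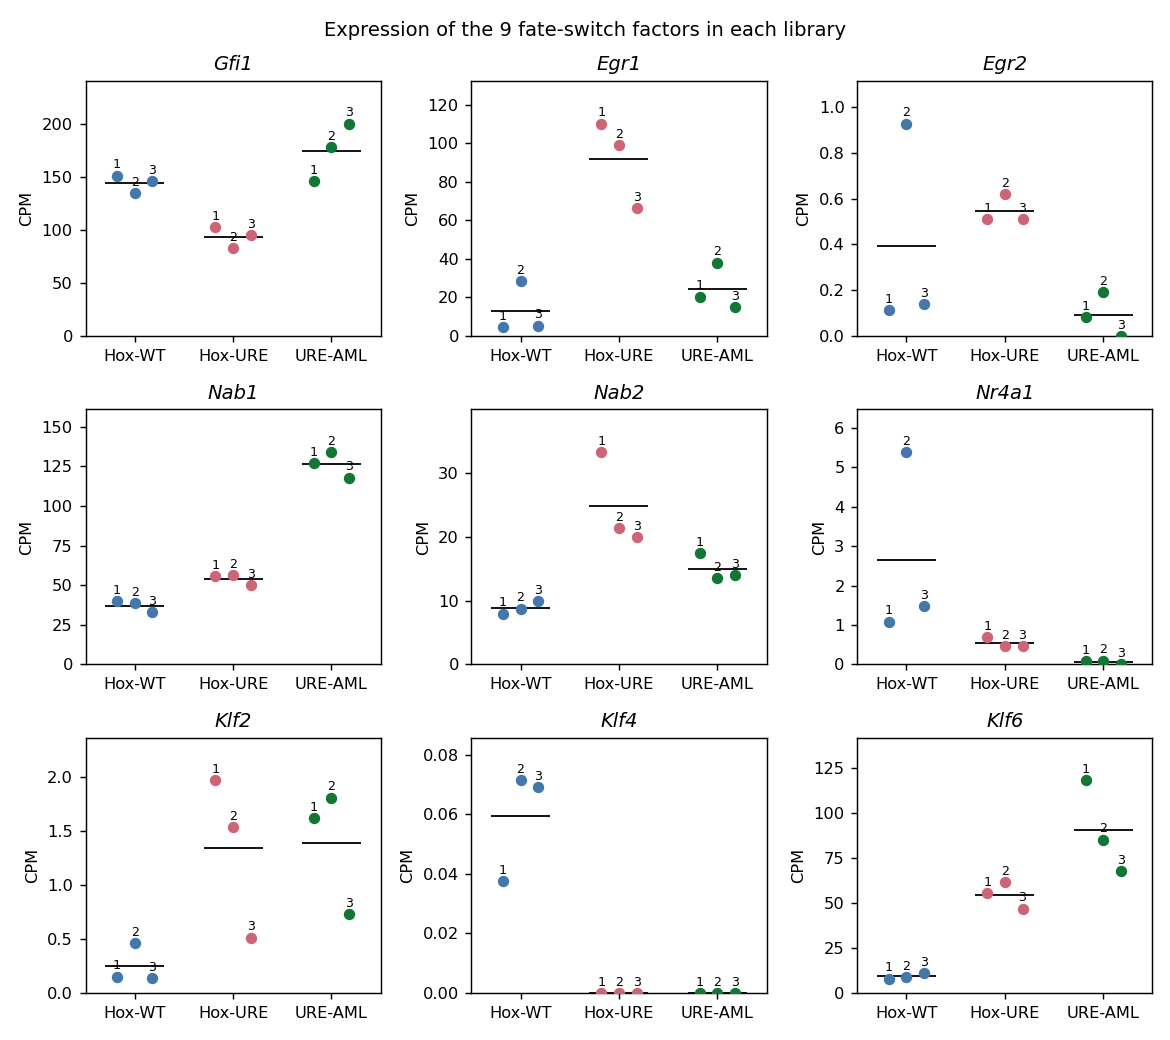
Expression of the 9 genes in CPM (linear axis from 0, scaled for each gene) in the 3 libraries of each line, with the library number beside each point and a bar at the mean. *Egr1*, *Egr2*, *Nr4a1* and *Klf2* have library 2 of Hox-WT far above the other libraries of that line, and *Gfi1* is lowest in Hox-URE.

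The Egr cofactors did not follow *Egr1* as a pair. *Nab1* (ENSMUSG00000002881, chr1:52457294-52500679, minus strand) was at 39.8, 38.6 and 33.2 CPM in Hox-WT, 55.9, 56.4 and 49.99 CPM in Hox-URE and 127, 134 and 118 CPM in URE-AML. The 3 lines formed 3 separate steps with no overlap. URE-AML exceeded Hox-WT by 1.76 ± 0.10 on the log2 scale (edgeR adjusted p = 2.44e-07) and Hox-URE by 1.22 ± 0.10 (adjusted p = 3.56e-06). The step from Hox-WT to Hox-URE was 0.54 ± 0.10 (edgeR adjusted p = 0.00123), under 1.5-fold and so not called, but it was called without library 3 of Hox-URE (0.59, adjusted p = 0.00200) or library 1 of Hox-WT (0.59, adjusted p = 0.00273).

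*Nab2* (ENSMUSG00000025402, chr10:127660918-127668568, minus strand) was at 7.94, 8.75 and 9.85 CPM in Hox-WT. It was at 33.2, 21.3 and 20.0 CPM in Hox-URE and at 17.4, 13.6 and 13.9 CPM in URE-AML. The lines did not overlap, with Hox-URE highest and Hox-WT lowest. *Nab2* rose in Hox-URE by 1.49 ± 0.21 on the log2 scale (edgeR adjusted p = 0.000181) and in URE-AML by 0.76 ± 0.20 (adjusted p = 0.00916), both against Hox-WT. URE-AML against Hox-URE gave -0.73 ± 0.20 (edgeR adjusted p = 0.0099). Without library 1 of Hox-URE, the highest, it was -0.47 (adjusted p = 0.0219) and under 1.5-fold. *Nab2* overlaps *Stat6*, *Gm16229* and *Nemp1* on the opposite strand. Libraries were stranded, but the strand setting of the quantification was not given in the sources used here.

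*Klf6* (ENSMUSG00000000078, chr13:5861482-5870394, plus strand), a factor of macrophage activation, had the clearest gain of the 3 Klf genes. It was at 7.94, 8.996 and 11.1 CPM in Hox-WT, 55.4, 61.7 and 46.8 CPM in Hox-URE and 118, 85.3 and 67.9 CPM in URE-AML. No libraries of different lines overlapped. Against Hox-WT the log2 fold change was 2.55 ± 0.22 in Hox-URE (edgeR adjusted p = 6.83e-06) and 3.27 ± 0.22 in URE-AML (adjusted p = 7.61e-07), or 5.84-fold and 9.65-fold. The further step from Hox-URE to URE-AML was 0.73 ± 0.20 (edgeR adjusted p = 0.0103). It was under 1.5-fold without library 1 of URE-AML (0.49, adjusted p = 0.0395).

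*Klf2* (ENSMUSG00000055148, chr8:72319033-72321656, plus strand), which restrains inflammatory activation of myeloid cells, was low in every line. It had 4, 13 and 4 counts in Hox-WT, 54, 37 and 10 in Hox-URE and 40, 38 and 17 in URE-AML. In CPM these were 0.15, 0.464 and 0.138 for Hox-WT, 1.97, 1.53 and 0.511 for Hox-URE and 1.61, 1.81 and 0.729 for URE-AML. Library 2 of Hox-WT came close to library 3 of Hox-URE but did not pass it. *Klf2* was higher than in Hox-WT by 2.41 ± 0.64 on the log2 scale in Hox-URE (edgeR adjusted p = 0.00972) and by 2.44 ± 0.64 in URE-AML (adjusted p = 0.0082). Without library 2 of Hox-WT these were 3.18 (adjusted p = 0.00734) and 3.22 (adjusted p = 0.00589). That library was the one of Hox-WT over the filter on low counts, so *Klf2* entered the test mainly through the lines where it was higher, and these calls are no support for a difference. The UREd/d lines differed by 0.03 ± 0.56 (adjusted p = 0.974), an estimate too wide to call them alike.

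*Klf4* (ENSMUSG00000003032, chr4:55527143-55532466, minus strand) had 1, 2 and 2 counts in Hox-WT and 0 in all 6 libraries of Hox-URE and URE-AML. All values were at or under the floor of 3 counts, so no fold change is given and a difference was not detectable at this depth.

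*Nr4a1* (ENSMUSG00000023034, chr15:101254269-101274795, plus strand) went the other way. It had 29, 151 and 43 counts in Hox-WT, 19, 11 and 9 in Hox-URE and 2, 2 and 0 in URE-AML. The 3 lines did not overlap, although library 2 of Hox-WT alone held most of its line's counts. The log2 fold change against Hox-WT was -2.29 ± 0.65 in Hox-URE (edgeR adjusted p = 0.0133) and -5.40 ± 0.87 in URE-AML (adjusted p = 0.000402). Without library 2 of Hox-WT the first was -1.25 (adjusted p = 0.0846) and not called, and the second was -4.36 (adjusted p = 0.000694). URE-AML was lower than Hox-URE by -3.11 ± 0.96 (edgeR adjusted p = 0.0174), or -2.56 (adjusted p = 0.0541) without library 3 of URE-AML. With 0 URE-AML libraries over the filter on low counts, *Nr4a1* entered the test through the lines where it was higher, and the calls in URE-AML are no support for a difference. Summed counts gave a ratio of Hox-URE to URE-AML of 9.47 (exact 95% interval 3.41 to 36.5, counting error only) and of Hox-WT to URE-AML of 46.1 (17.7 to 171), or 22.4 (8.37 to 84.3) without library 2 of Hox-WT. The 511 tested genes of chromosome 15 had a median log2 fold change of 0.33 in Hox-URE against Hox-WT, opposite in sign to *Nr4a1*, and of -0.39 in URE-AML against Hox-URE. Whether copy number had a part was not tested.

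**Figure D2:**
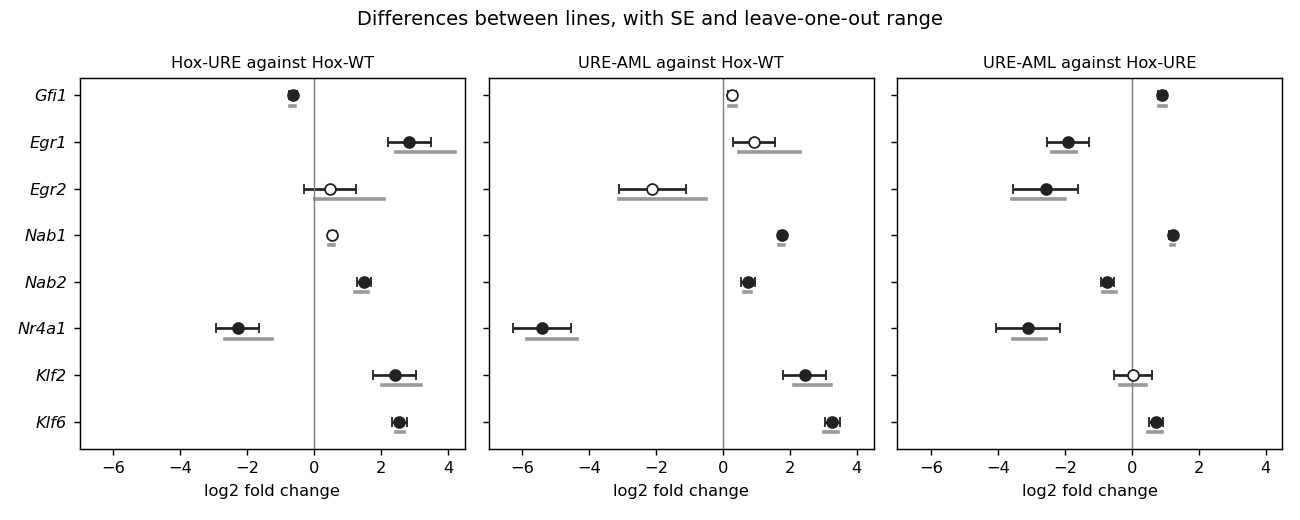
Log2 fold change of the 8 tested genes in the 3 comparisons of lines, with bars for the SE. Filled circles were called (edgeR adjusted p under 0.05 and over 1.5-fold), open circles were not, and the gray line below each is the range when 1 library is left out. *Klf6* and *Nab1* have narrow ranges, while those of *Egr1*, *Egr2* and *Nr4a1* are wide.

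Taking the 8 tested genes as a group, 4 were called higher (*Egr1*, *Nab2*, *Klf2*, *Klf6*) and 2 lower (*Gfi1*, *Nr4a1*) in Hox-URE against Hox-WT, where 37.2% of the 13082 tested genes were called, 21.3% as higher and 15.9% as lower. For URE-AML against Hox-WT 4 were higher (*Nab1*, *Nab2*, *Klf2*, *Klf6*) and 1 lower (*Nr4a1*), where 43.2% of all genes were called, 23.0% as higher and 20.2% as lower. For URE-AML against Hox-URE 3 were higher (*Gfi1*, *Nab1*, *Klf6*) and 4 lower (*Egr1*, *Egr2*, *Nab2*, *Nr4a1*), where 42.7% were called, 20.4% as higher and 22.4% as lower. *Egr2* and *Nr4a1* entered the test with 0 URE-AML libraries over the filter on low counts and *Klf2* with 1 Hox-WT library over it, so these counts and medians describe the tested genes and are no support for a difference. The libraries did not overlap for 7, 5 and 7 of the 8 genes in these comparisons, against 60.3%, 67.6% and 62.8% of all tested genes. The median log2 fold change of the 8 was 1.02, 0.85 and -0.35, and that of all tested genes was 0.00 in each. The comparisons share libraries and are not independent. Without library 2 of Hox-WT the counts were 4 higher and 1 lower, 5 and 1, and 3 and 4. In the last comparison they were 2 and 2 without library 1 of URE-AML, 3 and 1 without library 3 of URE-AML, and 3 and 2 without library 1 or 2 of Hox-URE.

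Library 2 of Hox-WT was examined for all 9 genes, since it stood apart in several. In it *Egr1*, *Egr2*, *Klf2* and *Nr4a1* exceeded 3 times their level in both other libraries of the line. So did 120 of the 13082 tested genes (0.917%), and each of the 9 libraries had 100 to 129 such genes (0.764% to 0.986%). In the other 8 libraries 0 of the 9 genes did so. The paralog *Egr3* was at 0.187, 6.82 and 0 CPM in Hox-WT. *Egr2* and *Egr3* were highest in library 2 of every line, with *Egr3* at 0.218, 0.58 and 0.0511 CPM in Hox-URE and 0.767, 1.66 and 0.0858 CPM in URE-AML. Of the other tested early response genes on the list 0 exceeded 3 times in that library: *Fos* was at 0.862, 1.64 and 1.00 CPM in Hox-WT, *Zfp36* was at 1.58 times the mean of the line's other libraries, and *Jun*, *Junb*, *Ier2*, *Ier3* and *Dusp1* were at 0.991 to 1.23 times it. *Atf3*, an early response gene with too few counts to be tested, had 0, 9 and 0 counts in libraries 1 to 3 of Hox-WT. What set the library apart was not tested.

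**Figure D3:**
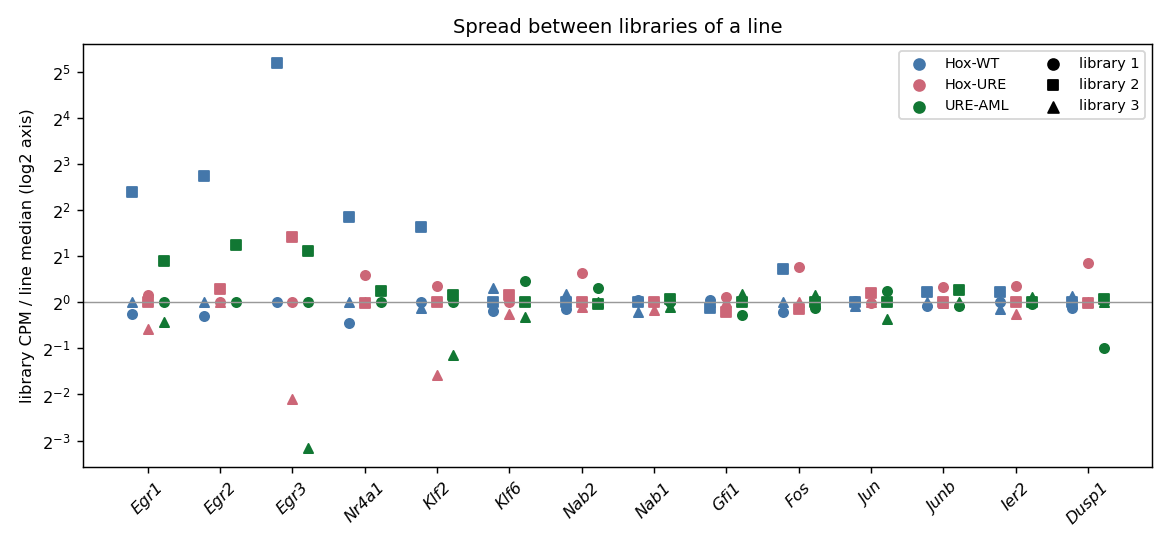
CPM of each library divided by the median of its line (log2 axis) for 8 of the genes, *Egr3* and 5 other early response genes, with colors for lines and shapes for library numbers. Values at 0 CPM (*Egr2* and *Nr4a1* in library 3 of URE-AML, *Egr3* in library 3 of Hox-WT) cannot be drawn, and the blue squares of library 2 of Hox-WT rise only for *Egr1*, *Egr2*, *Egr3*, *Nr4a1* and *Klf2* to over 3 times their line's other libraries.

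Relatives of the 9 genes in the Gfi, Egr, Nr4a and Klf families were listed too, and of 18 listed 13 were tested. In Hox-URE against Hox-WT 6 rose and 2 fell, in URE-AML against Hox-WT 8 rose and 2 fell, and in URE-AML against Hox-URE 3 rose and 1 fell, with medians of 0.70, 1.15 and 0.35 on the log2 scale. Of all tested genes 21.3%, 23.0% and 20.4% were called higher in these comparisons and 15.9%, 20.2% and 22.4% lower. *Gfi1b*, the paralog that acts in erythroid and megakaryocytic cells, was at 0.706 ± 0.557 CPM (SD, n = 3) in Hox-WT and rose to 4.89 ± 0.961 CPM in Hox-URE (edgeR adjusted p = 0.000592) and 3.45 ± 0.645 CPM in URE-AML (adjusted p = 0.00165). Its Hox-WT libraries were at 0.412, 0.357 and 1.35 CPM, and without the high one, library 3, the log2 fold changes went from 2.78 and 2.27 to 3.64 and 3.14. *Klf5* was at 6.8 to 7.14 CPM in URE-AML and at 0 in all 6 Hox libraries, at least 64.4-fold higher than Hox-WT and 53.8-fold higher than Hox-URE against the floor of 3 counts per library. With 0 Hox libraries over the filter on low counts, *Klf5* entered the test through URE-AML. Its calls among the genes that rose are no support for a difference. *Klf9* was at 116 CPM in URE-AML, 19.0 CPM in Hox-WT and 20.9 CPM in Hox-URE. *Klf8* fell in both UREd/d lines, from 2.37 CPM to 0.383 and 0.428 CPM.

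Genes that mark upstream signaling were described from lists, whose counts stand against the shares of all tested genes just given. Of 9 tested early response genes outside the 9, 4 rose and 1 fell in Hox-URE, and likewise in URE-AML, against Hox-WT, with medians of 0.30 and 0.53. In URE-AML against Hox-URE 3 rose and 1 fell (median -0.19). These are 5, 5 and 4 of 9 called, where 37.2%, 43.2% and 42.7% of all tested genes were. Those that rose against Hox-WT included *Fos*, by 1.53 and 1.52 on the log2 scale (edgeR adjusted p = 0.00356 and 0.0032). *Btg2*, an antiproliferative gene, was near the floor in Hox-WT, with 3, 4 and 3 counts, and had 25, 39 and 32 counts in Hox-URE and 79, 85 and 92 in URE-AML. With 0 Hox-WT libraries over the filter on low counts, its calls against Hox-WT are no support for a difference. *Ier2* (0.23 and 0.03) and *Junb* (0.19 and -0.13) were not called in either. Of 10 tested genes that the ERK pathway induces and most of which feed back on it, 6 rose and 0 fell in Hox-URE against Hox-WT (median 0.74). In URE-AML 1 rose and 3 fell against Hox-WT (median -0.17), and 0 rose and 6 fell against Hox-URE (median -1.30). *Spred3*, 1 of the genes that fell in both, had 0 URE-AML libraries over the filter on low counts. Its calls are no support for a difference.

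Among the ERK genes, the inhibitor *Spry1* was at 11.02 CPM in Hox-WT, 48.3 CPM in Hox-URE and 9.73 CPM in URE-AML. Its log2 fold change in Hox-URE against Hox-WT was 2.13 (edgeR adjusted p = 1.51e-07). *Etv5*, an Ets factor, was at 10.4, 45.8 and 15.4 CPM, and *Dusp6*, an ERK phosphatase, at 62.9, 122 and 60.1 CPM. Of the activators that act through the CArG and MEF2 motifs, 3 of 10 tested rose and 0 fell in Hox-URE against Hox-WT (median 0.11), where 21.3% and 15.9% of all genes did. The 3 were *Elk1*, an SRF partner (1.85 to 15.6 CPM), *Mapk7*, the kinase ERK5 that signals to MEF2 (0.687 to 4.71 CPM), and *Mef2a* (29.7 to 51.6 CPM). *Srf* itself was at 87.7 and 72.1 CPM (edgeR adjusted p = 0.182). Against Hox-WT 4 rose and 2 fell in URE-AML (median -0.13), and against Hox-URE 1 rose and 2 fell (median -0.23).

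Cofactors of Gfi1 were called in both directions. Of 11, 1 rose and 4 fell in Hox-URE against Hox-WT (median -0.23), 2 rose and 3 fell in URE-AML against Hox-WT (median -0.50), and 4 rose and 2 fell in URE-AML against Hox-URE (median 0.37). Of all tested genes 21.3%, 23.0% and 20.4% were called higher and 15.9%, 20.2% and 22.4% lower in these comparisons. The demethylase gene *Kdm1a*, the main partner of Gfi1, was at 64.5 CPM in Hox-WT, 62.3 CPM in Hox-URE and 59.7 CPM in URE-AML and was not called (edgeR adjusted p = 0.445 to 0.737). *Rcor2*, of the same complex, fell from 24.8 CPM to 2.23 CPM in Hox-URE (edgeR adjusted p = 1.65e-06). *Zbtb17*, which encodes the Gfi1 partner Miz1, fell from 32.6 to 17.1 CPM (adjusted p = 9.71e-05).

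Genes known to be repressed by Gfi1 were also called in both directions. Of 10 tested, 4 rose and 2 fell in Hox-URE against Hox-WT (median 0.61), where 21.3% and 15.9% of all genes did. In URE-AML 5 rose and 2 fell against Hox-WT (median 0.26), and 4 rose and 2 fell against Hox-URE (median 0.54, or 0.13 with the gene at 0 in a whole line set to its bound). *Id2*, an inhibitor of helix-loop-helix factors, was at 1.29 CPM in Hox-WT, 16.0 CPM in Hox-URE and 28.04 CPM in URE-AML, and the cell cycle inhibitor *Cdkn2b* at 0.216, 9.32 and 0.173 CPM. *Csf1r* and *Irf8*, which act in monocytes and are also bound by PU.1 in known work, were at 0 CPM and 0.17 CPM in Hox-URE and at 0.783 and 7.43 CPM in Hox-WT. With *Cdkn2b* they were over the filter on low counts in 0 libraries of the lower line, so these 3 calls are no support for a difference. In URE-AML the same limit holds for *Csf1r* and *Meis1*, the 2 that fell against Hox-WT. Against Hox-URE it holds for *Meis1* and *Cdkn2b*, the 2 that fell, and for *Irf8*, which rose. Every gene of this list called lower thus carries it.

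Most tested effector genes of both fates were called lower in Hox-URE. Of 15 tested monocyte genes 1 rose and 13 fell against Hox-WT (median -5.42, or -4.82 with genes at 0 in a whole line set to their bound), and of 15 tested neutrophil genes 1 rose and 12 fell (median -4.28, or -3.39). The shares of all genes were 21.3% for higher and 15.9% for lower. In Hox-URE 7 of the 13 monocyte genes and 7 of the 12 neutrophil genes called lower had 0 libraries over the filter on low counts, so they entered the test through the lines where they were higher, and their calls are no support for a difference. The exceptions that rose were *Ccr2*, the monocyte chemokine receptor, at 12.7 CPM in Hox-WT and 885 CPM in Hox-URE, and *Lcn2*, a granule protein, at 8.06 and 133 CPM. Without library 1 of Hox-URE, 3 neutrophil genes were higher and 11 lower. In URE-AML 11 neutrophil genes rose and 2 fell against Hox-WT (median 2.62), and 3 monocyte genes rose and 8 fell (median -2.06), where 23.0% and 20.2% of all genes did. The same limit holds for 1 of the 11 and 5 of the 8. *Camp*, a secondary granule gene, was at 0.643 CPM in Hox-WT, 0.017 CPM in Hox-URE and 640 CPM in URE-AML, and *Elane*, the neutrophil elastase gene, at 180, 9.28 and 7307 CPM. The 2 neutrophil genes that fell were *Mpo*, the myeloperoxidase gene, from 5040 to 192 CPM, and *Csf3r*, the G-CSF receptor gene, from 27.4 to 12.0 CPM. The 3 monocyte genes that rose were *Ly6c2*, a surface marker (49.2 to 671 CPM), *Cd14*, a coreceptor for lipopolysaccharide (61.8 to 189 CPM), and *F13a1*, a coagulation factor subunit (107 to 238 CPM), the last not called without library 1 of URE-AML (edgeR adjusted p = 0.07). These 5 were named after their values were seen. Against Hox-URE 13 neutrophil genes rose and 0 fell in URE-AML (median 5.52, or 5.26), and 7 monocyte genes rose and 2 fell (median 1.498, or 1.13), where 20.4% and 22.4% of all genes did. It holds there for 7 of the 13 and 3 of the 7, through their Hox-URE libraries.

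Some markers of other cell types also differed between the lines. Of 7 progenitor markers 0 rose and 6 fell in Hox-URE against Hox-WT (median -1.43). In URE-AML 0 rose and 7 fell against Hox-WT (median -3.82), and 1 rose and 3 fell against Hox-URE (median -0.38). In the lower line 0 libraries were over the filter on low counts for *Ptprc* in Hox-URE and for *Cd34*, *Flt3* and *Ptprc* in URE-AML. Those calls are no support for a difference. Of 6 basophil and mast cell markers, 5 rose and 0 fell in Hox-URE against Hox-WT (median 2.05), 1 rose and 4 fell in URE-AML against Hox-WT (median -2.70) and 0 rose and 6 fell in URE-AML against Hox-URE (median -4.66). Of all tested genes 21.3%, 23.0% and 20.4% rose and 15.9%, 20.2% and 22.4% fell in these comparisons, and 1 of the 5 that rose in Hox-URE, *Prss34*, had 0 Hox-WT libraries over the filter on low counts. Their summed level was 607 to 927 CPM in Hox-WT, 1803 to 6367 CPM in Hox-URE and 43.4 to 78.1 CPM in URE-AML, with 0 of the 6 at 0 counts in any library. Megakaryocyte markers summed to 6.74 to 15.8 CPM in Hox-WT, 16.5 to 51.0 CPM in Hox-URE and 1.94 to 5.15 CPM in URE-AML, erythroid markers to at most 14.4 CPM in any library, and lymphoid markers to 37.2 to 49.9 CPM in Hox-WT, 34.5 to 41.2 CPM in Hox-URE and at most 0.238 CPM in URE-AML. The basophil and mast cell markers were highest in Hox-URE, where *Egr1* and *Nab2* were also highest and *Gfi1* was lowest. From Hox-WT to URE-AML, 4 of the 6 basophil and mast cell markers were called lower and 1 higher. *Nab2* rose between those lines, and *Egr1* and *Gfi1* were not called. The part of these cells in the results was not tested. Without library 2 of Hox-WT no list named here lost or gained more than 2 calls in a direction.

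**Figure D4:**
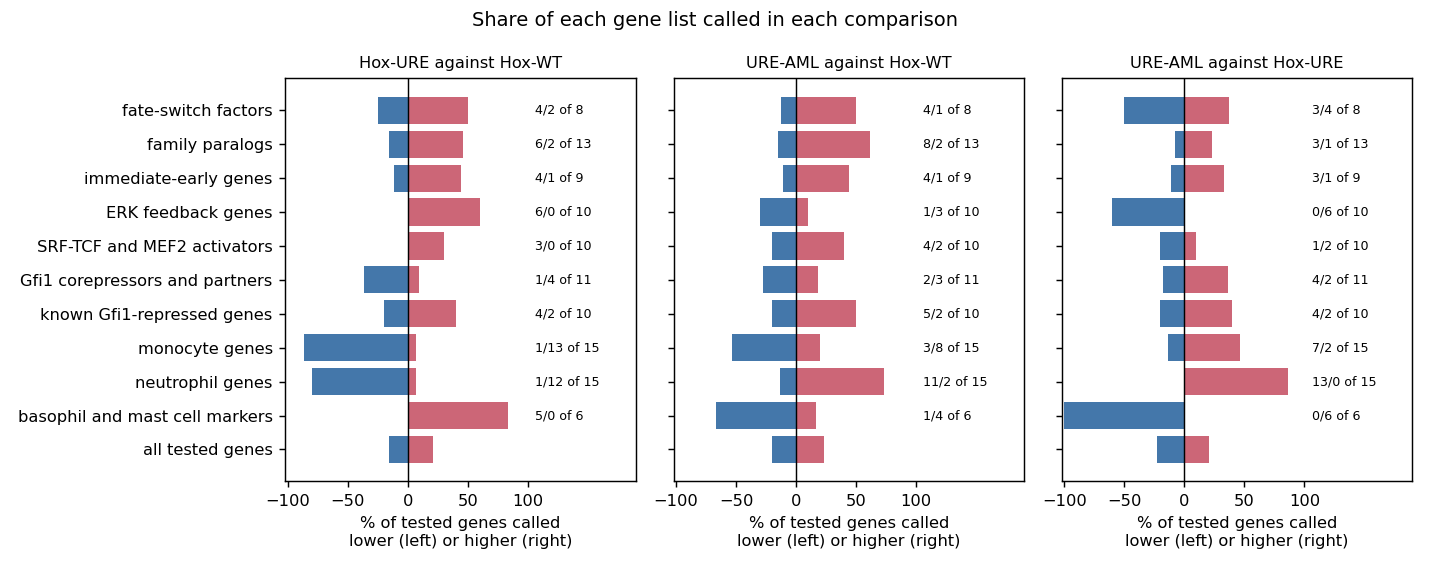
Share of each list called higher (right, red) or lower (left, blue) in the 3 comparisons, in percent of its tested genes, with the numbers higher and lower of those tested at the right of each panel, and all 13082 tested genes at the bottom. Most monocyte and neutrophil genes were called lower in Hox-URE, 7 of each with 0 Hox-URE libraries over the filter on low counts. In URE-AML against Hox-URE 13 of 15 neutrophil genes rose, 7 of them with 0 Hox-URE libraries over that filter. There 6 of 10 ERK feedback genes fell, 1 of them with 0 URE-AML libraries over it.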

How the data were processed

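Poly-A RNA of 3 cell lines, 3 stranded libraries each, was sequenced. The authors ran salmon and tximport, and the gene values they deposited are estimated counts, rounded. Salmon and GRCm38 are named in the submitters' processing notes. The transcriptome release and any scaling for transcript length were not given in the sources used here, so a shift between transcripts of a gene can change its count.

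Lines were taken from the labels. Genes with a minimum count of 10 by filterByExpr were kept (13082, leaving out 0.0499% of counts), and all 9 libraries were fitted in one edgeR 4.0.16 quasi-likelihood model (R 4.3.3) with line as the only factor. TMM factors ranged from 0.938 to 1.04, and the common BCV was 0.173. Each pair of lines was tested by a two-sided F test, with p adjusted by Benjamini-Hochberg over all tested genes. The SE is the log2 fold change, without its sign, over the root of F. Counts of 2 libraries of a line differed by 18.1 to 99.8 in chi-square per degree of freedom, far over sampling noise. Each was fitted as 1 replicate, though that spread may be technical and does not show separate cultures. Intervals of ratios of summed counts are exact (conditional binomial). A fold against a line at 0 is a bound that sets each of its libraries to 3 counts.

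Positions, overlaps and exon lengths came from GENCODE M21, which held 54094 of the 54347 identifiers, and promoters from RefSeq (GRCm38.p6). All 9 genes could be named, as could members of the lists, *Spi1*, and the 3 genes closest in pattern to *Gfi1* and *Egr1*. *Klf4* was to be included but was not tested. *A430072P03Rik*, *Stat6*, *Gm16229* and *Nemp1* are named for their overlap. The genes and lists were chosen with earlier results of these data known. Lists were described by counts and medians only.

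Alternatives were other scalings, other filters, DESeq2 1.42.0, glmTreat, no fold threshold, only the 6 libraries compared, a replicate block and leaving out each library. List counts without library 2 of Hox-WT were added after seeing the data. The code was tested on simulated data, and figures were drawn with matplotlib 3.10.9.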

Additional observations from a re-analysis of the deposited data

How the results depend on the processing

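Genes called numbered 4873, 5648 and 5592 (Hox-URE against Hox-WT, URE-AML against Hox-WT, URE-AML against Hox-URE) and 3200, 3602 and 3553 when at least 10 counts were required in every library, which tests fewer genes. That filter left 5 of the 9 genes, of which 4, 3 and 5 were called where 6, 5 and 7 had been. With glmTreat against 1.5-fold, 3 were called in URE-AML against Hox-URE, without *Egr1* (adjusted p = 0.0581), *Egr2* (0.0917), *Nab2* (0.236) and *Klf6* (0.246), and *Gfi1* was not called in Hox-URE against Hox-WT (0.433) nor *Nab2* in URE-AML against Hox-WT (0.199). Leaving out 1 library gave 5 to 7, 5 to 6 and 4 to 7 called. Scaling by library size only moved the median of all genes by -0.11 in the first comparison and 0.11 in the last, which turned no sign among the 9 genes and ended the *Egr2* call in the latter (adjusted p = 0.0521). It changed the calls there from 2663 higher and 2929 lower to 3166 and 2605, and in Hox-URE against Hox-WT from 2789 and 2084 to 2502 and 2547.

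The *Klf2* difference between the UREd/d lines ranged from -0.34 to 0.41 with 1 library left out and turned negative, at -0.09, -0.20 and -0.34, without library 1 or 2 of URE-AML or library 3 of Hox-URE. The *Gfi1* to *Egr* ratio, -3.93, -1.05 and 2.89 on the log2 scale in the 3 comparisons (the first 2 -4.82 and -1.93 without library 2 of Hox-WT), was -1.71, 2.06 and 3.77 with *Egr2* alone. Those values rest on few *Egr2* counts, with 0 in library 3 of URE-AML, so the 0.5 added to both counts sets part of them. The second was 1.03 without that library and 1.10 without library 2 of Hox-WT.

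Deviations from the line mean correlated between same-numbered libraries of different lines with r = 0.01 to 0.271 across genes. This was above 0 in all 9 pairs and over 0.1 in 2 of them. Of the 9 libraries, 8 correlated best with their own number in both other lines. The main fit left the number out, and whether same-numbered libraries were handled together was not tested. With the replicate block 4908, 5678 and 5584 genes were called, and among the 9 genes the one change was *Egr1* in URE-AML against Hox-WT (1.16, adjusted p = 0.0456). Depth limits *Klf4*, *Egr2*, *Klf2* and, in URE-AML, *Nr4a1*.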
